A study of Mus musculus with 16 samples.

Results

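The 39 mouse Hox genes of the Hoxa, Hoxb, Hoxc and Hoxd clusters were followed through podocytes, whole glomeruli and podocytes injured by an immunotoxin. They were chosen by symbol, as every named gene called Hox, then a cluster letter from a to d and a number, and all 39 had a probe among the 20145 named genes on the array: 11 in Hoxa on chromosome 6, 10 in Hoxb on chromosome 11, 9 in Hoxc on chromosome 15 and 9 in Hoxd on chromosome 2. That rule used no measured value, though earlier results of these data were known when the members were chosen. Messenger RNA on ribosomes was measured on 16 one-colour arrays, 4 in each of 4 groups. Uninjured mice carried the RiboTag allele, which puts an HA epitope on a ribosomal protein in cells with Cre recombinase, together with Nphs1-Cre, where the promoter of the nephrin gene drives Cre in podocytes, the epithelial cells around the glomerular capillaries. Their polysomes gave 2 groups: normal podocyte RNA, precipitated with antibody to HA, and normal glomerular RNA, taken from polysomes without that step. The other groups came from mice with the same tag and Cre crossed with NEP25, which puts human CD25 on podocytes. These mice received LMB2, an immunotoxin against CD25, once at 0.625 ng per g of body weight into the tail vein, and their podocyte polysomes were precipitated on day 4 or day 7. All mice had the C57BL/6N background, and the labels give neither age nor sex. The normal groups had neither NEP25 nor LMB2, and no group with NEP25 and no toxin was analysed here. Nothing in the labels ties an array to its own animal, so p-values measure only the spread between these samples, which may be technical.

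Hox genes encode homeodomain transcription factors that give cells along the body axis their position. The genes of a cluster lie side by side in the order in which they act: low-numbered genes, near the head end, and high-numbered genes, near the tail and in the limbs. Polycomb proteins keep the clusters silent, Trithorax proteins keep them active, and retinoic acid and Cdx factors help to set their first pattern, while the proteins themselves bind DNA with Pbx and Meis partners of the TALE class. The kidney forms from intermediate mesoderm, where the paralogues Hoxa11, Hoxc11 and Hoxd11 are needed for the ureteric bud to form and branch, the group of Hoxa10, Hoxc10 and Hoxd10 acts in the renal stroma, and Hoxb7 is a gene of the nephric duct and its branches. Adult kidney cells keep many Hox genes on.

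The promoters of 4 Hoxd genes are shown because the largest falls after LMB2 were in this cluster, at Hoxd9 and Hoxd4, and because Hoxd10, Hoxd9 and Hoxd8 are successive Hox genes there and also fell at both days. Each line holds the 250 bases before the RefSeq start, 5′ to 3′ on the plus strand of chromosome 2 in GRCm38.p6. Capitals mark matches on either strand to 6 motifs, which may overlap. The TATA box was searched with the letters TATAAA. The CCAAT box was searched with the letters of its name. The letters GGGCGG stood for the GC box. The letters AGGTCA stood for the nuclear receptor site. The composite site of Hox and Pbx proteins was written TGATNNAT, with N for any base. The Cdx motif was written TTTATG.
Hoxd10, chr2:74691641-74691890: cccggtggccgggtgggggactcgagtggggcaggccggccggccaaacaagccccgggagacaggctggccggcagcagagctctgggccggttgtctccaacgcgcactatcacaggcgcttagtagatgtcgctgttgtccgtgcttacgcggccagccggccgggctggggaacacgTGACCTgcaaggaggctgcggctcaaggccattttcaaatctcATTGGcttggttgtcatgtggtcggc
Hoxd9, chr2:74697513-74697762: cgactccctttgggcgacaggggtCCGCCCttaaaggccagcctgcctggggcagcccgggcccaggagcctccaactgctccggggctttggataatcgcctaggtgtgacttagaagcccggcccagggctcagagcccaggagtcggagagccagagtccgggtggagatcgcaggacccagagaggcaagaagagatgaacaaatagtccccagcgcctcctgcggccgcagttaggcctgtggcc
Hoxd8, chr2:74704365-74704614: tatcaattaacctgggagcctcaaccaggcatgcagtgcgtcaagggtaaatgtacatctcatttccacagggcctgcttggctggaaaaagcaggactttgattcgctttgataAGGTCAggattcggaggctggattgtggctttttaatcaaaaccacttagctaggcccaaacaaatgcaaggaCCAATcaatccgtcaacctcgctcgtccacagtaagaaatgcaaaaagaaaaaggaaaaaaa
Hoxd4, chr2:74721728-74721977: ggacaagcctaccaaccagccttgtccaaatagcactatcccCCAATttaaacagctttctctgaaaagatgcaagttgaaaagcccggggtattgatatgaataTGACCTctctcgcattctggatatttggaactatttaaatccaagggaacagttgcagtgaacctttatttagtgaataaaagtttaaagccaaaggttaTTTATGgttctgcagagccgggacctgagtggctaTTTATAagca
The Hoxd4 window held a TATA box, a CCAAT box, a nuclear receptor site and a Cdx motif, and those of Hoxd8 and Hoxd10 each held a CCAAT box and a receptor site. A GC box was the single match before Hoxd9, and no motif was shared by all 4 windows. RefSeq's promoter table had entries for 22 of the 39 Hox genes. Of these, 14 held a CCAAT box, against 33.8% of all 32851 promoter windows of this length. Genes with several windows (Hoxa10 and Hoxd11) counted if any window matched, while the shares are of single windows. A GC box was in 10 of the 22 (32.7% of all windows), a receptor site in 6 (14.02%), a Cdx motif in 5 (10.8%), a TATA box in 4 (12.4%) and a composite site in 4 (7.68%). A Hox window had a median of 12.5 CpG and 58.6% GC, and the medians over all windows were 6 CpG and 52.4%. A match to letters is a description of the window and not a binding site.

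Between 28 and 32 of the 39 Hox genes were well above background on each array, the flag by which the scanner software marks a spot brighter than its surroundings. The number was 29 to 31 on normal podocyte arrays, 32 on each glomerular array, 28 to 31 at day 4 and 31 to 32 at day 7. Of the 39, 27 were above background on all 16 arrays and 5 on no array: Hoxb1, Hoxb13, Hoxc13, Hoxd12 and Hoxd13, the outermost genes at an end of their clusters (Hoxd12 next to the last). The other 7 were seen on some arrays, among them Hoxd11, of the paralogue group needed for kidney branching. Hoxd11 was above background on 4 of 4 glomerular arrays, 1 of 4 normal podocyte arrays, 0 at day 4 and 1 at day 7. Hoxc11 was above background on 3 of 4 normal podocyte arrays, 4 of 4 glomerular arrays, 0 of 4 at day 4 and 3 of 4 at day 7. Hoxa2, a hindbrain gene, was seen on 2, 4, 2 and 4 arrays of normal podocytes, glomeruli, day 4 and day 7. Hoxa11 missed 1 array at day 4 and Hoxd3 1 of the normal podocytes, and Hoxd1 was seen on 2 arrays of all 16. The probe that stands for Hoxa13, the brighter of 2, was seen on 1 array and the other probe on 2 more. With at least 1 group fully above background, 32 Hox genes passed the filter: 10 of Hoxa, 8 of Hoxb, 8 of Hoxc and 6 of Hoxd. Hoxa13 and Hoxd1 dropped out with the 5 that no array detected.

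**Figure D1:**
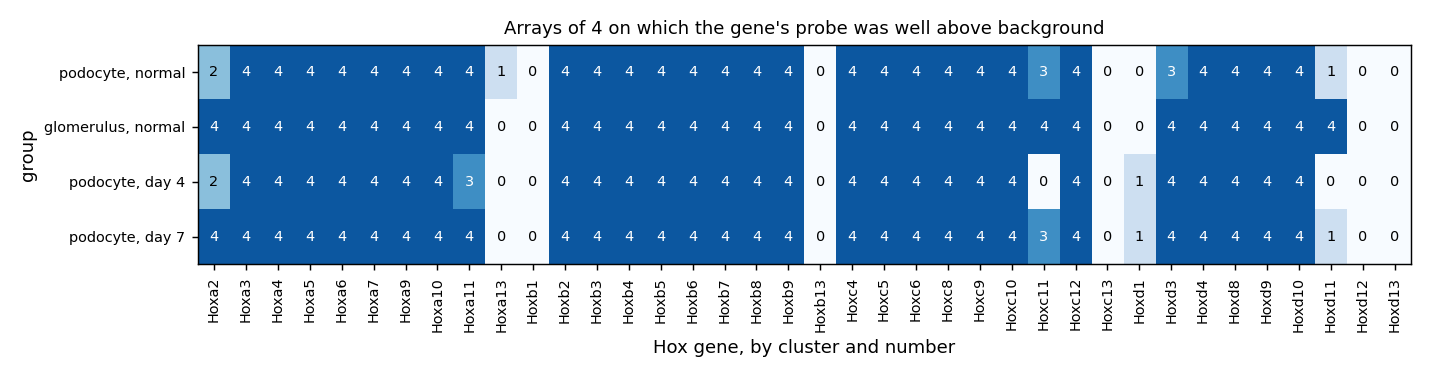
Number of arrays, of 4 per group (rows), on which the probe of each Hox gene shown (columns, by cluster and number) was well above background; darker cells mean more arrays. A column with 4 in every row is a gene detected on all 16 arrays; Hoxd11 and Hoxc11 read 4 in the glomerular row and 0 at day 4.

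Each array held 59305 spots other than controls, of which 49.3% to 57.5% were well above background and none was saturated. Values below are levels on the log2 scale relative to the array's 75th percentile, so they rank the arrays for 1 gene and say nothing about one gene against another. All 10 podocyte markers tested (among them Nphs1, Podxl, Synpo and Wt1) were higher in normal podocyte than in glomerular RNA, by a median of 2.31 on the log2 scale. In the same comparison endothelial markers were lower in 10 of 10 and mesangial markers in 10 of 10, proximal tubule markers in 8 of 8, distal nephron markers in 9 of 10, leukocyte markers in 7 of 8 and red cell markers in 5 of 5. Stromal markers were lower in 3 of 4, with Col1a2 higher (2.38). Of 6 parietal epithelial markers Krt8 and Krt18 were lower and Cldn1 (1.22) and Ncam1 (1.75) higher. Beside these counts, 51.6% of all genes tested were higher and 27.5% lower. Both normal groups were on 1 slide and both LMB2 groups on another.

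The first comparison set normal podocyte RNA against normal glomerular RNA. Podocyte RNA had more of the central Hoxc genes Hoxc4, Hoxc5, Hoxc6 and Hoxc8, of Hoxc9 and of the Hoxa genes Hoxa7, Hoxa9 and Hoxa10, each by 2.34-fold to 4.60-fold. It had less of 7 Hoxb genes, by up to 24.8-fold at Hoxb8, and less of Hoxa11, by 11.3-fold; after normexp background correction these log2 differences shrank from -4.63 to -3.21 and from -3.50 to -2.07, and with normexp and quantile normalization to -3.19 and -1.97. Of the 32 Hox genes tested, 12 (Hoxb3 included, read by its brighter probe) were higher and 11 lower at limma's adjusted p under 0.05, where 51.6% of all 14574 genes tested were called higher and 27.5% lower. A difference of at least 2-fold was called for 10 higher and 9 lower (19.4% and 21.6% of all genes). Both counts of lower genes include Hoxd11, which passed the filter through the glomerular group alone. In all, 23 of 32 were called against 79.1% of all genes, and the groups did not overlap for 19 Hox genes against 73% of all genes. The median Hox difference was 0.06 and the median over all genes 0.38 on the log2 scale. The latter was 0.17 to 0.70 under 4 other scalings, and changes are given relative to the 75th percentile.

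**Figure D2:**
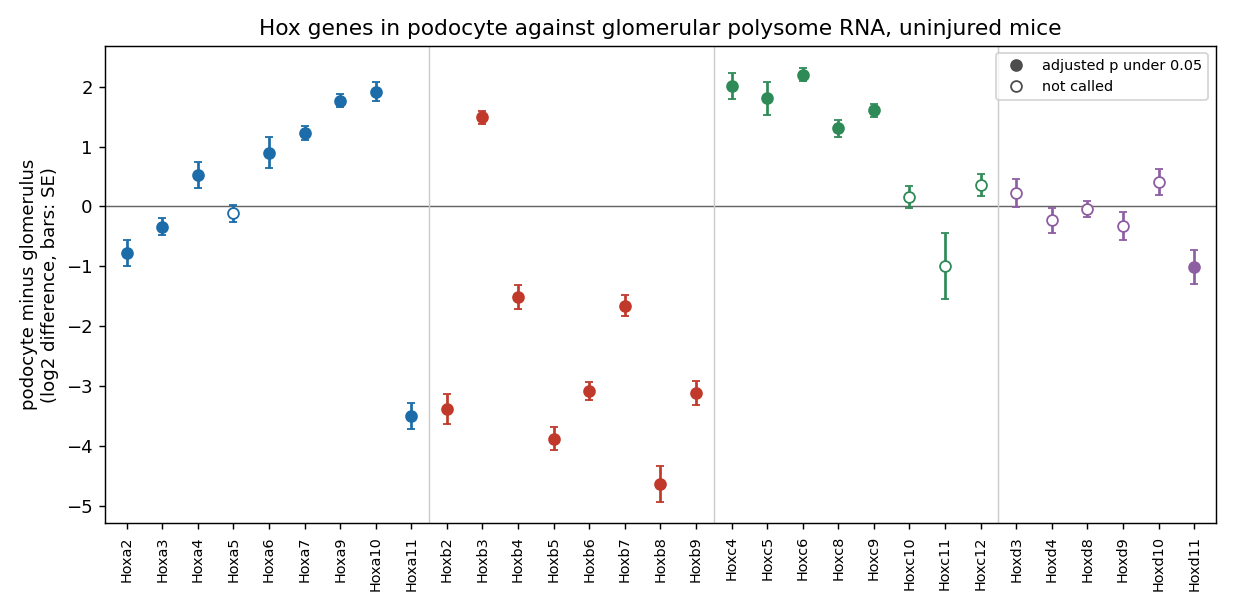
Normal podocyte minus normal glomerular RNA (vertical axis, log2 difference; bars, standard error of the fit, n = 4 arrays per group) for the tested Hox genes shown, by cluster and number along the horizontal axis, with filled points for limma's adjusted p under 0.05. For Hoxb, 7 of 8 points lie below 0. For Hoxc, 5 of 8 points are filled and above 0. In Hoxd, 1 of 6 points is filled, Hoxd11, which passed the filter through the glomerular group alone.

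Hoxb was the cluster with the largest falls: all 8 tested genes were called, 7 of them lower in podocyte RNA, with a median difference of -3.10 over the cluster. Hoxb8, known from blood and spinal cord development, had levels of -3.36, -3.81, -3.17 and -3.26 on the 4 normal podocyte arrays and 0.97, 1.14, 1.26 and 1.54 on the glomerular ones. The highest podocyte value lay more than 4 log2 units below the lowest glomerular value, and the fitted difference was -4.63 ± 0.30 (SE; limma, adjusted p = 5.84e-09). Hoxb5, a gene of vascular and enteric neural development, read -1.73, -1.58, -1.63 and -1.95 in podocyte RNA against 2.41, 2.17, 2.09 and 1.95 in glomerular RNA. Its groups did not overlap either, and the difference was -3.88 ± 0.19 or 14.7-fold (limma, adjusted p = 5.55e-10). Hoxb2 (-3.38), Hoxb9 (-3.11) and Hoxb6 (-3.08) were lower by over 8-fold, Hoxb9 less so after normexp correction (-2.42). Hoxb7, the gene of the nephric duct and collecting system, and Hoxb4, known in blood stem cells, differed less, at -1.66 ± 0.17 and -1.51 ± 0.20, with no overlap of the groups.

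Hoxb3 depended on the probe. Its brighter probe, above background on all 16 arrays, ranged over 1.58 to 1.76 in podocyte RNA and 0.16 to 0.17 in glomerular RNA, a difference of 1.49 ± 0.11 (limma, adjusted p = 2.87e-08). A second probe, above background on 9 of the 16 arrays, went the other way, with means of -3.89 and -1.35 and a difference of -2.54. Averaging both probes gave -0.53 (limma, adjusted p = 0.0389), so no direction of the gene is claimed. For Hoxa9, the other called gene with 2 probes above background, both probes were higher in podocyte RNA, by 1.77 and 1.45.

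In Hoxc, 5 of 8 tested genes were called, all of them higher in podocyte RNA, and the cluster's median was 1.45. Hoxc6, a gene of the trunk at forelimb level, read 6.56, 6.18, 6.12 and 6.16 in podocyte RNA and 4.22, 4.09, 4.06 and 3.84 in glomerular RNA. Every podocyte array was higher, and the difference was 2.20 ± 0.12 or 4.6-fold (limma, adjusted p = 9.3e-10). Hoxc4, the most 3′ gene of the cluster, stood at 2.59, 2.14, 3.17 and 2.67 against 0.44, 0.30, 1.23 and 0.55. These groups did not overlap either, with a difference of 2.01 ± 0.22 (limma, adjusted p = 1.14e-06). Hoxc5 (1.80 ± 0.28), Hoxc9 (1.60 ± 0.11) and Hoxc8 (1.30 ± 0.15) completed the run of 5 neighbouring Hox genes. Beyond it, the higher-numbered genes did not pass the test: Hoxc10 (0.16 ± 0.18), Hoxc11 (-0.998 ± 0.55) and Hoxc12 (0.35 ± 0.18). Normal podocyte replicate 2 was low for Hoxc5, at -0.16 beside 1.03 to 1.12 on the other 3 arrays; without it the Hoxc5 difference was 2.11.

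Hoxa was mixed along its length. Of 10 tested genes, 6 were called higher and 3 lower. Hoxa6, Hoxa7, Hoxa9 and Hoxa10 formed a run of higher genes, with Hoxa11, which was lower, just beyond it. Hoxa10, which acts in the renal stroma and the reproductive tract, was the most raised at 1.92 ± 0.16 or 3.78-fold, with 3.07 to 3.45 in podocyte RNA and 1.101 to 1.45 in glomerular RNA. Its neighbour Hoxa11, of the paralogue group needed for the ureteric bud, was the opposite, at -3.68 to -3.21 and -0.26 to 0.43. The difference was -3.50 ± 0.22 (limma, adjusted p = 4.09e-09). Hoxa9, known in blood formation, was higher by 1.77 ± 0.11, and Hoxa7, a trunk gene, by 1.22 ± 0.11. Hoxa6 (0.90) and Hoxa4 (0.53) were higher with overlapping groups, and Hoxa2 (-0.78) and Hoxa3 (-0.34) lower. The call of Hoxa2 was lost with quantile normalization, median centring or either normexp setting, that of Hoxa3 without podocyte replicate 2 or 4 or glomerular replicate 1 or 3 (-0.30 to -0.25), and that of Hoxa4 without podocyte replicate 1, 3 or 4 or glomerular replicate 2 or 3 (0.40 to 0.52). Hoxa5 did not pass the test, at -0.11 ± 0.14.

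In Hoxd, 1 of 6 tested genes was called. That gene was Hoxd11, lower at -1.01 ± 0.28 (limma, adjusted p = 0.00449), with a podocyte level measured above background on 1 of 4 arrays. It passed the filter through the glomerular group alone, where it was bright, so a lower podocyte value was favoured in advance. After normexp background correction the difference was -0.10 and was not called. Hoxd9 read 0.97, 1.15, 0.94 and 0.15 in podocyte and 1.13, 1.13, 1.13 and 1.15 in glomerular RNA. The glomerular arrays lay close together, 3 of the 4 podocyte arrays lay below them, and the difference of -0.33 ± 0.23 was not called (limma, adjusted p = 0.205). Hoxd3 (0.22 ± 0.23), Hoxd4 (-0.23 ± 0.21), Hoxd8 (-0.04 ± 0.13) and Hoxd10 (0.41 ± 0.21) did not pass the test either. By number, 7 of the 15 central genes (4 to 8) were higher and 5 lower. Among the anterior genes (1 to 3) 2 of 6 were higher and 3 lower, and among the posterior genes (9 to 13) 3 of 11 were higher and 3 lower. Beside the counts by number, 51.6% of all genes were higher and 27.5% lower.

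Hoxa11 and the tested Hoxb genes other than Hoxb3 were lower in podocyte RNA, as were most markers of the other cell types named above. Col1a2, Cldn1 and Ncam1 were higher. On the linear scale relative to the 75th percentile, the summed level of the 10 endothelial markers ran from 33.3 to 72.9 over the normal podocyte arrays and from 562 to 685 over the glomerular arrays. The corresponding sums were 12.98 to 22.8 and 136 to 219 for the 10 distal nephron and collecting duct markers. Of these, Hsd11b2 was above background on no normal podocyte array. The sums of the 4 stromal markers went the other way, at 104 to 218 and 29.8 to 32.3. So did those of the 6 parietal epithelial markers, at 11.2 to 24.8 and 7.62 to 9.51. A sum is set mostly by its brightest probes. The part of these cells in the Hox differences was not tested. In RNA from a mixed tissue, fewer cells of a type and less RNA per cell cannot be told apart.

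The other genes of the Hox pathway were read from lists. Among the TALE partners, 3 of 9 were higher in podocyte RNA and 3 lower: Pknox2 (2.55 ± 0.16) and Pbx2 (1.92 ± 0.14) were higher, and Meis2 was lower (-2.25 ± 0.14). Pbx4, above background on every glomerular and no normal podocyte array, was at least 1.18-fold lower (limma, adjusted p = 0.000215). Of 24 Polycomb genes 17 were higher, with Cbx8 (1.75) and Jarid2 (1.39) first, and 4 lower, with Cbx2 (-3.44) and Ezh2 (-2.85) first. Beside the counts of the TALE, Polycomb and following lists, 51.6% of all genes were higher and 27.5% lower. Ezh2 is a histone methyltransferase and Cbx2 a reader of its mark. Cbx2 was above background on 1 and Ezh2 on 2 of the 4 normal podocyte arrays. The filter passed Ezh2 through the glomerular group alone, which favoured a lower podocyte value in advance. Of 13 Trithorax and H3K27 demethylase genes 10 were higher, led by Ash2l (1.26), Kdm6a (1.21), Mllt3 (1.05) and Rbbp5 (0.98). Of 15 genes tested from the retinoic acid and Cdx list 7 were higher and 5 lower, and no Cdx gene was among the 15. The retinoic acid degrading enzymes split, with Cyp26a1 at 2.97 ± 0.57 and Cyp26b1 at -3.58 ± 0.68, while Aldh1a2, which makes retinoic acid, was at 2.37 ± 0.23 and the receptor Rarg at -2.11 ± 0.17. The median differences were -0.10, 0.68, 0.60 and -0.20 for the TALE, Polycomb, Trithorax and retinoic acid lists, beside 0.38 over all genes.

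Of 10 tested noncoding RNAs and neighbouring genes of the clusters, 8 were higher and 2 lower in podocyte RNA, where 51.6% and 27.5% of all genes were. Hoxd3os1, an RNA antisense to Hoxd3, was higher (1.29 ± 0.18), and Hoxa11os, antisense to Hoxa11, was lower (-1.36 ± 0.19) as Hoxa11 was; both were chosen for mention after their values were seen. Mtx2, beyond the 3′ end of Hoxd, was higher by 1.46 ± 0.14, Calcoco1, near Hoxc, by 1.52 ± 0.15, and Skap2, near Hoxa, by 1.42 ± 0.11. Skap1, the flanking gene of Hoxb, was above background on no normal podocyte array and at least 8.95-fold lower (limma, adjusted p = 1.7e-09). It passed the filter through the glomerular group alone, so a lower podocyte value was favoured in advance. Among 21 kidney transcription factors outside the clusters 9 were higher (51.6% of all genes), first Tcf21 (3.57 ± 0.17), a podocyte and stromal factor. Another 9 were lower (27.5% of all genes), first Irx1 (-4.20 ± 0.66) and Gata3 (-3.87 ± 0.27), a factor of the nephric duct and mesangium. Irx1 was above background on 2 of 4 normal podocyte arrays. Emx2, a duct factor above background on no normal podocyte array, was at least 2.93-fold lower. Irx1 and Emx2 also passed the filter through the glomerular group alone, which favoured a lower podocyte value in advance. The counts of lower genes include them and Skap1.

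The study's question was how gene expression differs between normal podocytes and those injured by the toxin, and the second comparison set podocyte RNA at day 4 against normal podocyte RNA. Hoxd9 fell most, by 4.44-fold, followed by its neighbour Hoxd10 and by Hoxb4, each by over 2-fold. Hoxb8 and Hoxb9, both low in normal podocytes against glomeruli, rose, as did Hoxd3. Of 32 Hox genes, 3 were called higher and 14 lower, where 12.3% and 19.9% of all genes were; the 17 called compare with 32.2% of all genes. At 2-fold or more, 1 was higher (Hoxb8) and 3 lower (Hoxd9, Hoxd10 and Hoxb4), where 6.94% and 1.32% of all genes were. The groups did not overlap for 15 Hox genes against 33.1% of all genes, and the median difference was -0.37 against -0.12. LMB2 and NEP25 were present in the day 4 and day 7 mice alone, and those arrays sat on their own slide. So toxin, transgene, slide and any step done slide by slide cannot be told apart in any comparison with normal podocytes.

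**Figure D3:**
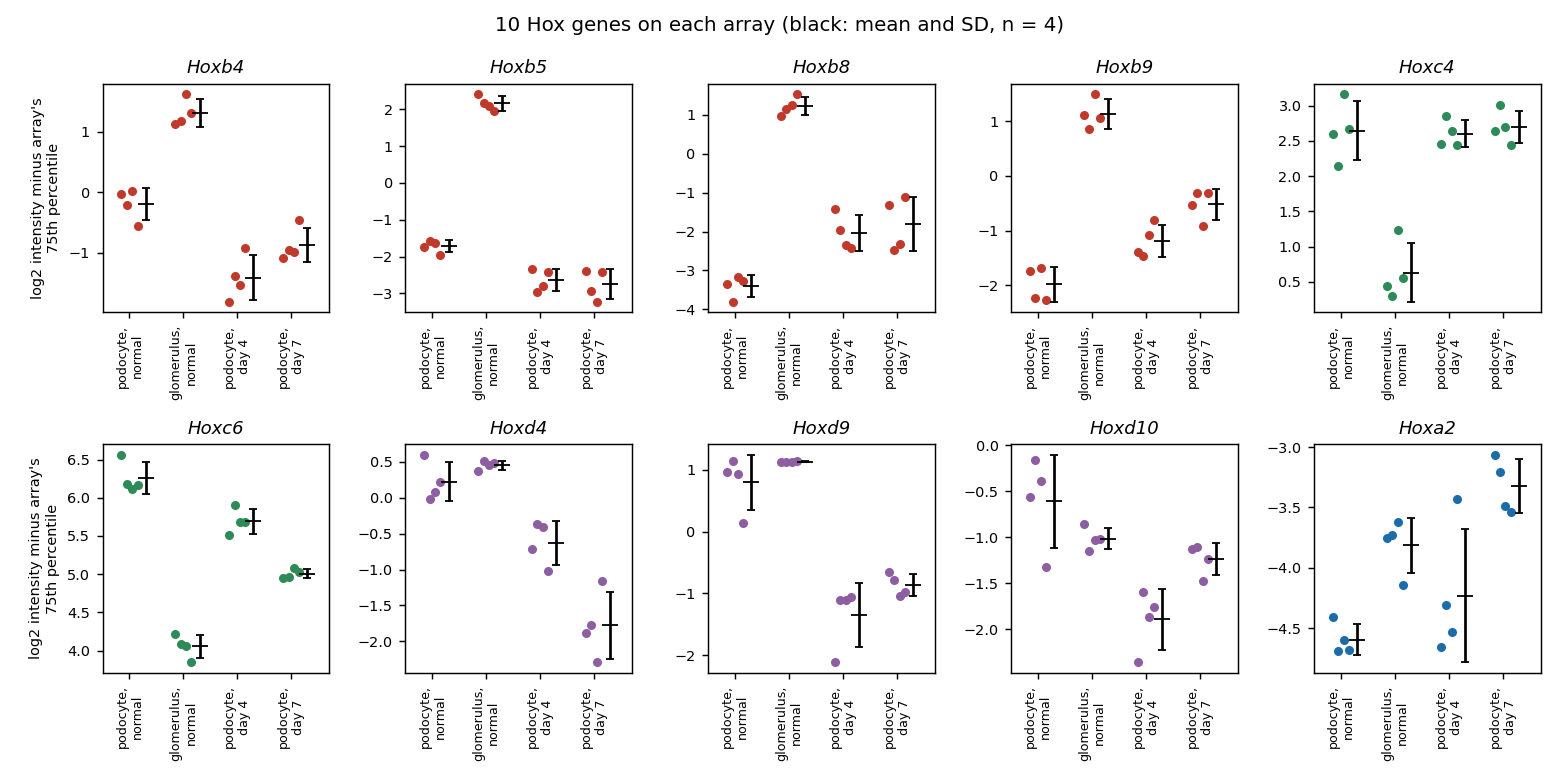
Level of 10 Hox genes on each of the 16 arrays (vertical axis, log2 intensity minus the array's 75th percentile, a separate scale per panel), with coloured points for the 4 arrays of each group and black marks for mean and SD. Hoxb4, Hoxb5, Hoxb8 and Hoxb9 stand highest in glomerular RNA, Hoxc4 and Hoxc6 stand higher in all podocyte groups than in glomerular RNA, and Hoxd9 stands lower on all 8 LMB2 arrays than on the 8 normal arrays.

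Hoxd9 read -2.12, -1.11, -1.11 and -1.06 on the day 4 arrays, against the normal podocyte values given above. Every day 4 array was below every normal one, and the difference was -2.15 ± 0.23 (SE; limma, adjusted p = 8.5e-06). One day 4 array, replicate 1, lay about a log2 unit under the other 3, and without it the difference was -1.89. Hoxd10 went from -0.56, -0.15, -0.39 and -1.32 in normal podocytes to -2.36, -1.59, -1.86 and -1.76 at day 4. Its groups did not overlap, and it fell by 1.29 on the log2 scale (SE 0.21; limma, adjusted p = 0.000425). The other Hoxd falls were Hoxd4 (-0.85 ± 0.21) and Hoxd8 (-0.69 ± 0.13), so that 4 of the 6 tested Hoxd genes fell. Hoxd3, which read -4.25 to -3.68 in normal podocytes and -3.75 to -2.59 at day 4, rose by 0.98 ± 0.23 (0.30 with normexp and quantile normalization) with an overlap of the groups, and Hoxd11 did not pass the test (-0.56 ± 0.28).

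All 8 tested Hoxb genes were called at day 4, 6 lower and 2 higher. Hoxb4 went from -0.04, -0.22, 0.02 and -0.56 to -1.81, -1.39, -1.54 and -0.92 with no overlap, a difference of -1.21 ± 0.20 (limma, adjusted p = 0.000319). Hoxb5 read -2.34, -2.96, -2.79 and -2.42 at day 4 and was also below all normal podocyte arrays, at -0.91 ± 0.19 (limma, adjusted p = 0.00234). Hoxb7 (-0.91), Hoxb6 (-0.77), Hoxb2 (-0.73) and the brighter Hoxb3 probe (-0.41) were lower as well; the call of Hoxb2 was lost without normal replicate 2 or 3 or day 4 replicate 1, 2 or 3 (-0.78 to -0.60), and that of Hoxb3 without day 4 replicate 4 (-0.33). Against them, the 2 genes next to each other at the 5′ side of the tested genes rose. Hoxb8 read -1.43, -1.97, -2.35 and -2.43 at day 4, above every normal podocyte array and below every glomerular one, a rise of 1.36 ± 0.30 (limma, adjusted p = 0.00338), or 0.68 after normexp correction. Hoxb9, its neighbour, moved from -1.74, -2.24, -1.68 and -2.27 to -1.39, -1.47, -1.09 and -0.82, also with no overlap, a rise of 0.79 ± 0.20 (limma, adjusted p = 0.00702).

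In Hoxa, Hoxa10 alone of 10 passed the test at day 4, at -0.51 ± 0.16. Its call was lost without normal replicate 1 or 3 or day 4 replicate 1 or 4 (-0.48 to -0.45). Hoxa9 was at -0.06 by its brighter probe and -0.39 by its second, and was not called with both averaged. In Hoxc, Hoxc10 (-0.67 ± 0.18), Hoxc6 (-0.56 ± 0.12) and Hoxc9 (-0.47 ± 0.11) were lower. Hoxc4 read 2.46, 2.86, 2.65 and 2.44, inside the normal podocyte range, with a difference of -0.04 ± 0.22. The count of 3 higher was 5 without normal replicate 3.

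By day 7, compared with normal podocytes, Hoxd4 had fallen furthest, by 3.99-fold, and Hoxd9 was still 3.17-fold lower. Hoxc6 and Hoxb5 were lower by over 2-fold. Hoxb8, Hoxb9 and Hoxa2 were higher by 3.02-fold, 2.75-fold and 2.41-fold. After normexp correction the rises of Hoxb8 and Hoxa2 were smaller, at 0.88 and 0.51 on the log2 scale beside 1.59 and 1.27, and with normexp and quantile normalization they were 0.68 and 0.27; Hoxa2 was above background on 2 of 4 normal arrays. The falls of Hoxd4 and Hoxb5 were -1.31 and -0.43 after normexp correction, beside -1.997 and -1.02. In all, 5 Hox genes were called higher and 14 lower of 32, where 21.6% and 36.7% of all genes were; the 19 called compare with 58.3% of all genes. At 2-fold or more, 3 were higher and 4 lower, where 11.9% and 7.51% of all genes were. The groups did not overlap for 14 Hox genes against 50.6% of all genes. The median difference was -0.38 over the Hox genes and -0.14 over all genes. With each array centred on its median, the split was 3 higher and 20 lower.

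**Figure D4:**
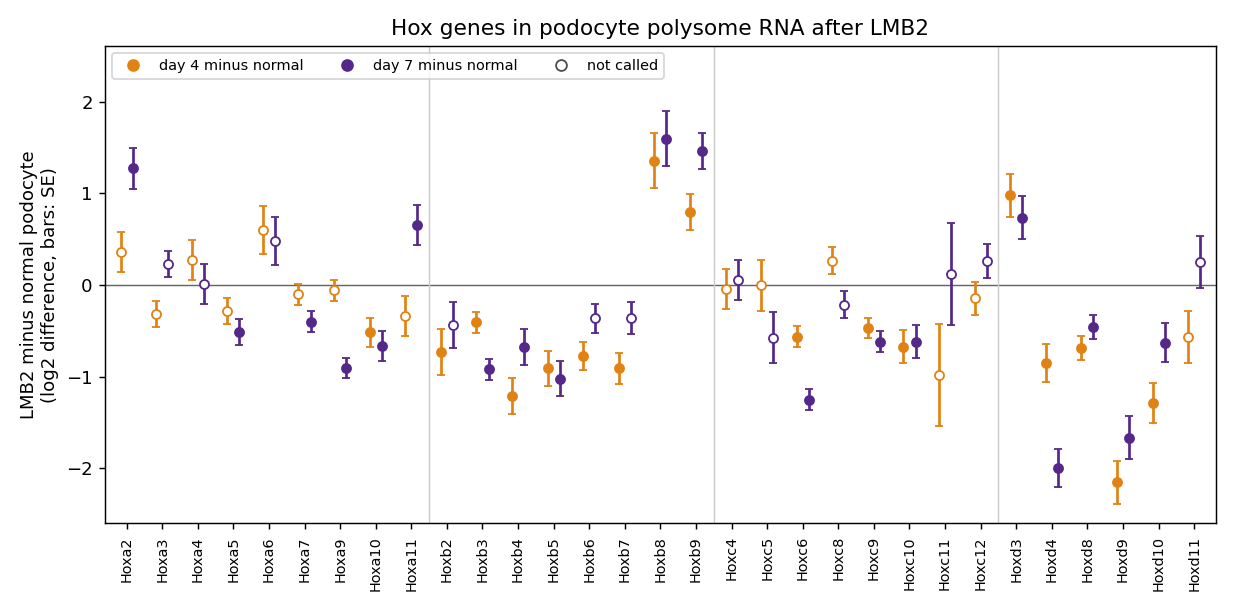
Day 4 (orange) and day 7 (purple) minus normal podocyte RNA (vertical axis, log2 difference; bars, standard error of the fit, n = 4 arrays per group) for the tested Hox genes shown, by cluster and number along the horizontal axis, with open points where limma's adjusted p was 0.05 or more. Both points are filled and below 0 for 11 genes, among them Hoxd4, Hoxd8, Hoxd9 and Hoxd10, and filled and above 0 for Hoxb8, Hoxb9 and Hoxd3; both days share the normal podocyte arrays.

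Hoxd4 went from 0.60, -0.02, 0.08 and 0.22 on the normal podocyte arrays through -0.72, -0.37, -0.40 and -1.02 at day 4 to -1.89, -1.77, -2.29 and -1.16 at day 7. All 3 groups were apart, and the day 7 difference was -1.997 ± 0.21 (SE; limma, adjusted p = 2.11e-06). Hoxd9 at day 7 read -0.66, -0.78, -1.04 and -0.98, below every normal podocyte array, at -1.67 ± 0.23 (limma, adjusted p = 3.1e-05). Hoxd8, the least changed of the 4, was at -0.46 ± 0.13. Hoxd10 read -1.13, -1.10, -1.48 and -1.24, which overlapped the normal range at the low normal replicate 4, with a difference of -0.63 ± 0.21; the call was lost without normal replicate 2 or 3 or day 7 replicate 3 (-0.56 to -0.48). Hoxd3 was higher by 0.74 ± 0.23, a call that quantile normalization and median centring removed.

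In Hoxb, the pair that had risen stayed up: Hoxb8 read -1.33, -2.49, -2.31 and -1.10 (1.59 ± 0.30; limma, adjusted p = 0.000383) and Hoxb9 read -0.53, -0.32, -0.92 and -0.32 (1.46 ± 0.20; limma, adjusted p = 2.11e-05). Every day 7 array was above every normal podocyte array for both, and below every glomerular array. Hoxb5, at -2.40, -2.92, -3.22 and -2.42, was below every normal podocyte array (-1.02 ± 0.19). Hoxb4 read -1.09, -0.97, -0.98 and -0.47 and was lower, at -0.68 ± 0.20 with an overlap at 1 array of each group. The brighter Hoxb3 probe was lower (-0.92 ± 0.11), and Hoxb2, Hoxb6 and Hoxb7 did not pass the test at day 7, at -0.44, -0.36 and -0.36.

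Hoxc6 was 5.51, 5.90, 5.68 and 5.68 at day 4 and 4.95, 4.96, 5.08 and 5.03 at day 7, a stepwise order in which no group overlapped the next; day 7 was -1.25 ± 0.12 from normal (limma, adjusted p = 6.39e-07). It remained above all glomerular arrays. Hoxc9 (-0.62 ± 0.11) and Hoxc10 (-0.62 ± 0.18) were also lower. Hoxc4 read 2.64, 3.01, 2.70 and 2.45, still inside the normal podocyte range, with a difference of 0.05 ± 0.22 that did not pass the test. In Hoxa, Hoxa9 (-0.91 ± 0.11), Hoxa10 (-0.66 ± 0.16), Hoxa5 (-0.51 ± 0.14) and Hoxa7 (-0.40 ± 0.11) were lower. Hoxa2 went from -4.41, -4.69, -4.60 and -4.68 in normal podocytes, where 2 of 4 arrays were above background, to -3.06, -3.20, -3.49 and -3.53 at day 7, where all were. It rose by 1.27 ± 0.22 with no overlap (limma, adjusted p = 0.000182). Hoxa11 was higher by 0.66 ± 0.22, a call lost without normal replicate 4 or day 7 replicate 2 or 4 (0.52 to 0.58) and with quantile normalization or median centring.

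Read over both days, 11 Hox genes were lower at each, as 17.3% of all genes were: Hoxa10, Hoxb3 (by its brighter probe), Hoxb4, Hoxb5, Hoxc6, Hoxc9, Hoxc10, Hoxd4, Hoxd8, Hoxd9 and Hoxd10. Hoxb8, Hoxb9 and Hoxd3 were higher at each, as 10.5% of all genes were. Hoxb2, Hoxb6 and Hoxb7 were called lower at day 4 and not at day 7, and Hoxa5, Hoxa7 and Hoxa9 at day 7 and not at day 4. Another 10 were called at neither day, among them Hoxc4 and Hoxc5, higher in normal podocytes than glomeruli. Of the 12 genes higher in normal podocytes than glomeruli, 4 were lower at day 4 and 6 at day 7, each count with Hoxb3 by its brighter probe. Of the 11 lower there, 2 rose and 5 fell at day 4, and 4 rose and 2 fell at day 7. These counts share the normal podocyte arrays, which favours a fall for genes called higher there and a rise for genes called lower. For the counts by podocyte and glomerular direction no share over all genes was computed. They are given as a description and not as a pattern of the Hox genes.

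The day 7 arrays were also set against the day 4 arrays, which lie on 1 slide, day 4 in one row and day 7 in the other, so that row and day cannot be told apart. Hoxd4 fell further, by 2.22-fold, with Hoxa9 and Hoxc6, while Hoxa11 and Hoxa2 were higher. Of 32 Hox genes, 8 were called higher and 6 lower, where 13.2% and 20.7% of all genes were; the 14 called compare with 34% of all genes. Hoxd4 was the single Hox gene called at 2-fold or more, as 2.61% of all genes were in its direction and 6.17% in the other. The groups did not overlap for 9 Hox genes against 34.2% of all genes, and the medians were 0.08 and -0.07. The count of 8 higher was 4 without day 4 replicate 1, 5 without day 4 replicate 2, 4 without day 4 replicate 3, 5 without day 7 replicate 1, 3 without day 7 replicate 2 and 5 without day 7 replicate 4. Median centring left 4 higher and 6 lower.

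The further fall of Hoxd4 was -1.15 ± 0.21 (limma, adjusted p = 0.000975), with no overlap. Hoxa9 fell from 0.63 to 1.01 to -0.19 to 0.06 (-0.85 ± 0.11; limma, adjusted p = 7.73e-05), and its second probe gave -0.71. Hoxc6 changed by -0.69 ± 0.12 and Hoxc8 by -0.48 ± 0.15; Hoxc8 lost its call without day 4 replicate 2 (-0.42). Hoxb3 was lower by its brighter probe (-0.51) and not when both probes were averaged (0.15). Hoxa11 moved from -3.95 to -3.59 to -3.51 to -2.37, a rise of 1.00 ± 0.22 with no overlap (limma, adjusted p = 0.00325); it was 0.34 after normexp correction and 0.32, not called, with normexp and quantile normalization. Hoxa2 read -4.65, -4.31, -4.53 and -3.43 at day 4 and so overlapped day 7 at its replicate 4, with a difference of 0.91 ± 0.22 (limma, adjusted p = 0.00585), or 0.29 after normexp correction. Hoxa3 (0.55 ± 0.14) and Hoxb9 (0.67 ± 0.20) were higher, Hoxb9 not without day 4 replicate 2 or day 7 replicate 2 (0.57 to 0.60). The calls of 4 further rises were lost on leaving out 1 array. Hoxd11 (0.82), above background on 0 day 4 and 1 day 7 arrays, lost its call without any 1 day 4 array or without day 7 replicate 1 or 2 (0.63 to 0.89), and was at 0.08, not called, after normexp correction. Hoxd10 (0.66) and Hoxb7 (0.55) did so without day 4 replicate 1 or 3 or day 7 replicate 1, 2 or 4 (0.50 to 0.67 and 0.42 to 0.55). Hoxb4 (0.54) did so without day 4 replicate 1, 2 or 3 or day 7 replicate 2, 3 or 4 (0.40 to 0.57). Hoxd9 did not pass the test between the days (0.48 ± 0.23; limma, adjusted p = 0.126).

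Other genes of the pathway were read against the all-gene shares of 12.3% higher and 19.9% lower at day 4 and 21.6% higher and 36.7% lower at day 7. Pbx4 was above background on no normal podocyte array and on all arrays at day 4 and day 7, at least 4.43-fold higher at day 4 and at least 12.3-fold at day 7. Of 9 TALE genes, 3 rose and 1 fell at day 4 and 3 rose and 4 fell at day 7; Meis3 rose (1.29 ± 0.18 and 1.45 ± 0.18), Pknox1 fell at day 4 (-0.53 ± 0.14), and Pbx2 was lower at day 7 (-1.04 ± 0.14). Among 24 Polycomb genes, 3 were higher and 5 lower at day 4, each by under 0.6 on the log2 scale (Ezh1 -0.50, Eed 0.49, Phc2 -0.46, Aebp2 0.46). At day 7, 5 were higher and 13 lower, with Ezh2 (1.14), Cbx2 (1.14), Jarid2 (-1.07) and Cbx8 (-0.98) the furthest; Ezh2 was above background on 2 normal podocyte arrays, 0 at day 4 and 3 at day 7, and Cbx2 on 1, 1 and 4. Of 13 Trithorax and demethylase genes 4 were called at day 4, all lower, first Psip1 (-0.47) and Wdr5 (-0.43). At day 7 6 were lower, among them Psip1 (-0.80), Kdm6b (-0.76) and Ash2l (-0.72), and 2 higher, first Dot1l (0.82). The list medians at day 4 and day 7 were -0.07 and -0.31 for TALE, -0.19 and -0.26 for Polycomb, and -0.07 and -0.16 for Trithorax, beside -0.12 and -0.14 over all genes.

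The same shares stand beside the retinoic acid, cluster and kidney lists. Cyp26a1, which breaks retinoic acid down, was lower, at -1.92 ± 0.57 at day 4 and -4.44 ± 0.57 at day 7 (limma, adjusted p = 0.0191 and 1.34e-05). Crabp2, which carries retinoic acid to its receptors, rose by 2.44 ± 0.29 and 3.15 ± 0.29. The synthetic enzyme Aldh1a1 was higher at day 7 (2.81 ± 0.46), and Aldh1a3 was lower at day 4 (-0.98 ± 0.27) and day 7 (-1.62 ± 0.27). Of 15 genes, 2 rose and 4 fell at day 4 and 4 rose and 6 fell at day 7, with medians of -0.32 and -0.15. Among the cluster RNAs and neighbours, 5 of 10 were called at day 4 and 8 of 10 at day 7, all of them lower, where 19.9% and 36.7% of all genes were lower. Hoxd3os1 was at -0.69 ± 0.18 and -1.44 ± 0.18, while Hoxd3 was higher at both days. Hoxa11os was at -0.30 ± 0.19 at day 4, not called, and -1.28 ± 0.19 at day 7, when Hoxa11 was higher. Smug1 (-0.74 and -0.97) and Skap2 (-0.65 and -1.01) fell at each day. Of 21 kidney transcription factors 1 rose and 3 fell at day 4. At day 7 7 rose and 9 fell, among the latter Tcf21 (-1.36 ± 0.17). Six4, above background on no normal podocyte array, was at least 3.85-fold higher at day 4 and at least 6.85-fold at day 7.

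Some markers of podocytes and of other cell types changed at the same times. Of all genes tested, 12.3% were called higher and 19.9% lower at day 4. At day 7 these shares were 21.6% and 36.7%. The 10 podocyte markers summed to 2150 to 2291 on the normal podocyte arrays, 1737 to 2168 at day 4 and 1289 to 1541 at day 7, relative to the array's 75th percentile, and 8 of 10 were called lower at day 7. Mesangial and smooth muscle markers summed to 25.7 to 37.3, 47.4 to 79.7 and 801 to 1093. Of the 10, 4 (Acta2, Cnn1, Des and Tagln) were higher at day 7 and 6 were not called. At day 4 Tagln was higher and Itga8 lower. Of 6 parietal epithelial markers 5 were higher at day 7 and Ncam1 was lower, with sums of 11.2 to 24.8, 11.7 to 17.1 and 8.21 to 16.7. A sum is set mostly by its brightest probes, so it need not rise with most of its markers and is no amount of a cell type. Distal nephron and collecting duct sums were 12.98 to 22.8, 12.9 to 27.3 and 13.2 to 45.4, with Aqp3 and Hsd11b2 higher at both days and Aqp2 lower at day 7 (-1.19). Endothelial sums were 33.3 to 72.9, 22.7 to 41.0 and 27.8 to 41.9, below the 562 to 685 of glomerular RNA. Red cell markers were lower in 4 of 5 at day 7, with a median of -1.64, and summed to 10.8 to 21.0, 4.45 to 49.1 and 2.91 to 6.42. Leukocyte sums were 6.70 to 10.04, 10.7 to 13.5 and 6.59 to 10.07; C1qa, above background on no normal, 1 day 4 and 2 day 7 arrays, was called higher at both days and Csf1r at day 4 (0.60). Of 4 stromal markers, Col1a1 was higher at day 7 (3.02), and the sums were 104 to 218, 176 to 255 and 125 to 201. The part of these cells in the Hox changes was not tested.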

How the data were processed

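Agilent one-colour arrays were read with Feature Extraction 11.5.1.1, per the file headers. Per the file headers, the deposited intensity of a spot was processed (background-subtracted and detrended) on a linear scale and not normalized between arrays. The authors' deposited table holds log2 values of 39430 probes, each column an exact shift of 1 array. Its normalization is not stated, its column medians ran from -3.17 to -2.51, and 6 columns (replicates 1 to 3 of both normal groups) matched another replicate of the same group, so these replicate numbers are uncertain. The deposited flags per spot (well above background, saturated, outlier) were taken as the authors' files give them.

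Control and outlying spots were left out, spots of 1 probe were averaged (55681 probes), and RefSeq accessions gave 26582 probes a gene name and left 29099 unnamed. Values were log2 intensity minus the array's 75th percentile (intensity 227 to 415). A probe stayed in if at least 1 group had it well above background on its 4 arrays, and a gene took its kept probe with the highest mean, which gave 14574 genes. All 16 arrays entered 1 limma fit (limma 3.58.1, R 4.3.3; arrays read with Python 3.11.15) with group as the only term, 12 residual degrees of freedom and Benjamini-Hochberg adjustment over the 14574 genes, called under 0.05; the fit was tested on simulated data. The number of arrays limits the precision. A bound ("at least N-fold") compares the mean of the bright group with a floor on each dim array: the dimmest signal still well above background there, or the probe's signal if that was higher.

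Between podocyte and glomerular RNA, deviations from the group means correlated at 0.42 to 0.51 for equal replicate numbers, each number best with its own, so the numbers pair these samples by the data; the labels do not say why. Array-by-array values are given for genes called after LMB2 with an absolute log2 difference of at least 1 and the 2 furthest called in each direction between podocyte and glomerular RNA; up to 4 genes per list were named by the largest called differences in a comparison, and exceptions are named as such. Members, lists and tests were chosen with earlier results of these data known. The alternatives tried were other scalings and background corrections, the authors' table, other filters, probe averaging, fewer arrays, array weights, a replicate block, a slide row block and leaving out each array. A few genes counted in the totals are not reported here by name or in the figures.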

Additional observations from a re-analysis of the deposited data

Results flagged for a closer look

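On 8 occasions, 1 array of a group of 4 lay further from the others than Dixon's limit allows, out of 128 groups checked; chance alone gives about 1 in 20. Day 4 replicate 1 was the low array 3 times: Hoxd9 at -2.12 (others -1.11 to -1.06), Hoxc10 at -1.35 (others -0.69 to -0.60) and Hoxd11 at -6.07 (others -5.47 to -5.38). Normal podocyte replicate 1 was high for Hoxc6 at 6.56 (others 6.12 to 6.18), and normal podocyte replicate 2 was low for Hoxc5 at -0.16 (others 1.03 to 1.12). Day 7 replicate 2 was high for Hoxa10 at 3.12 (others 2.37 to 2.49), day 7 replicate 3 low for Hoxc11 at -4.38 (others -3.75 to -3.69), and glomerular replicate 3 high for Hoxd11 at -3.33 (others -4.34 to -4.20).

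For further Hox genes the LMB2 effect differed between day 4 and day 7 by limma's test of that difference (day 7 minus day 4, log2 scale). It was higher at day 7 for Hoxa11 (1.00), Hoxa2 (0.91), Hoxd11 (0.82), Hoxb9 (0.67), Hoxd10 (0.66), Hoxb7 (0.55), Hoxa3 (0.55) and Hoxb4 (0.54), and lower for Hoxd4 (-1.15), Hoxa9 (-0.85), Hoxc6 (-0.69), Hoxb3 (-0.51) and Hoxc8 (-0.48). Hoxd11 was above background on 0 day 4 and 1 day 7 arrays, so its difference was read near background. The Hoxb3 value is that of its brighter probe; the second probe gave 0.81 and the mean of both 0.15.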

How the results depend on the processing

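Of the single-gene results under alternatives, 2271 kept direction and side of the threshold, 109 lost their call, 62 gained one and 2 reversed, both Hoxb3 with its probes averaged (-0.53 for podocyte against glomerulus, 0.15 for day 7 against day 4). Of the counts, 142 stayed within 1.5 times and 16 moved; the cause was not tested. At day 4, the 3 higher became 5 with array weights and 3 to 5 on leaving out 1 array. At day 7, the 5 higher became 3 with quantile normalization, median centring or normexp with quantile, 2 with probes above background on all 16 arrays (fewer genes tested), and 4 to 6 on leaving out 1 array. Day 7 against day 4, the 8 higher became 4 with median centring and 3 to 8 on leaving out 1 array. With the replicate number as a block, podocyte against glomerulus changed no Hox call; elsewhere the numbers did not pair the samples (correlations from -0.41 to 0.49), and the block gave 1 higher and 7 lower at day 4 and 3 higher for day 7 against day 4, among the lost calls Hoxd4. It left 4 higher and 12 lower at day 7. Leaving out 1 array, podocyte against glomerulus ranged over 11 to 12 higher and 10 to 12 lower, day 4 over 12 to 16 lower, day 7 over 13 to 16 lower and day 7 against day 4 over 5 to 7 lower. With median centring 1184 of all genes were called higher and 5828 lower at day 4 (1799 and 2896 before) and 1968 and 7393 at day 7 (3152 and 5349 before). With the looser flag (positive and significant signal), 33 to 34 Hox genes were above background on each array, a mean of 33.5, 33.5, 33.5 and 33.8 in normal podocyte, glomerular, day 4 and day 7 RNA against 30.5, 32, 29.5 and 31.2. The slide as a block was not run: it could not be fitted for LMB2 against normal podocytes and is constant in the other comparisons. The slide row block, chosen after seeing the data, left 11 higher and 10 lower for podocyte against glomerulus. Weak signal limits Hoxc11, Hoxd11 and Hoxa2, which some groups did not measure on every array.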
